A study of Mus musculus with 13 samples.

Results

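The 39 forkhead (Fox) transcription factor genes examined here were taken by name from 21938 protein-coding genes of the mouse annotation; the rule used no measured value, but the set was chosen with earlier results of these data known. For each gene, the listed H3K4me3 and H3K27me3 peaks within 2 kb of any annotated transcription start site (TSS) were collected in neural stem cells (NSCs), oligodendrocyte precursor cells (OPCs) and newly formed oligodendrocytes (NFOs), together with the listed OLIG2 peaks in the gene and 5 kb upstream of it in OPCs and NFOs. Most of these genes carried H3K27me3 near a TSS: 25 in NSCs, 27 in OPCs and 24 in NFOs, against 15.1%, 16.4% and 9.56% of all protein-coding genes. The genes with a role in neural patterning, mesoderm, vessels and other lineages held most of it, often over many kilobases, whereas 4 of the 11 broadly acting members, Foxj3, Foxk1, Foxm1 and Foxn2, carried H3K4me3 alone in every stage and 4, 3 and 3 of the 11 carried H3K27me3. Fewer members had a listed H3K4me3 peak from stage to stage, with 33 in NSCs, 27 in OPCs and 20 in NFOs, against 64.3%, 60.8% and 43.6% of all protein-coding genes.

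Forkhead proteins share a winged-helix DNA-binding domain and direct cell fate, the cell cycle, metabolism and ciliogenesis. H3K4me3 is a histone mark found at the start of active or poised genes, and H3K27me3 is laid down by Polycomb repressive complex 2 over silenced genes. Promoters that carry both are called bivalent, and many bivalent genes encode developmental regulators that are silent in the cell examined. OLIG2 is the basic helix-loop-helix factor that specifies the oligodendrocyte lineage and binds E-boxes, CANNTG.

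The study profiled chromatin in 3 stages of the oligodendrocyte lineage. The NSCs were cultured cells from cortices of mid-gestation CD-1 mouse embryos according to the methods, although the labels give C57BL/6 for every sample. The OPCs and NFOs were immunopanned from C57BL/6 mouse brains at postnatal day 7, OPCs on antibody to PDGFRα and NFOs on antibody to GalC. All samples were untreated. Each condition had 1 library, so there are no replicates, no error could be estimated and no test was made of any difference between stages; the main counts of members are therefore given beside the share of all protein-coding genes. The 6 histone lists were named by the titles, since the antibody label of each H3K4me3 sample names H3K27me3 and the reverse. The shares of peaks within 1 kb of a coding TSS were 42.4%, 69.8% and 42.0% in the lists titled H3K4me3 and 6.06%, 11.2% and 17.2% in those titled H3K27me3, in NSCs, OPCs and NFOs. Listed peaks numbered 33292, 18284 and 21736 for H3K4me3 and 36069, 29417 and 12688 for H3K27me3, and the read depth behind them is unknown. Of marker genes, H3K4me3 was listed at 5 of 5 for NSCs and 5 of 5 for OPCs, in NSCs and in OPCs alike. These sets therefore do not tell NSCs and OPCs apart by H3K4me3. In NFOs the mark was listed at the NFO markers Ugt8a and Cnp but not at Mbp or Myrf, although each had it in NSCs and OPCs. The NFO peak at Cnp, of 3.31, did not pass the filter described below. Mag, Mog and Enpp6 had no H3K4me3 peak in any stage. Neuron markers had H3K4me3 at 4, 5 and 4 of 5 genes, astrocyte markers at 2, 1 and 1 of 5, microglia markers at 0, 1 and 0 of 5 and endothelial markers at 1 of 5 in each stage.

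Runs of A or T were frequent in and beside the listed peaks, and they are described early because the counts below differ with and without them. A run inside a peak is counted here from 12 A or 12 T, and a run at its edge from 8 A in the 20 bases before the start or 8 T in the 20 bases after the end. Of all OLIG2 peaks, 67.5% in OPCs and 65.8% in NFOs held an inner run, whereas 3.44% and 3.56% of windows of the same width beside them did. Among histone peaks, an inner run was held by 87.8% of NSC H3K27me3 peaks (7.69% of windows beside them), and an edge run lay at 56.3% of OPC H3K27me3 peaks and 59.4% of NFO H3K4me3 peaks, with the mirrored arrangement at 0.265% and 0.235%. The OLIG2 libraries were prepared with the DNA SMART ChIP-Seq kit according to the methods, and the kit of the histone libraries is not given in the sources used here. The part of these runs in the results below was not tested.

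Foxk1, Foxh1 and Foxc2 show the runs in their own peaks, on the plus strand of GRCm38/mm10, with inner runs in capitals. At Foxk1 (chr5:142401497-142462011, plus strand), the OPC OLIG2 peak upstream of the gene overlapped an NFO H3K4me3 peak that starts at the last A of the run. At Foxh1 (chr15:76668225-76669948, minus strand), the NSC H3K27me3 peak held a run and the OPC H3K27me3 peak began straight after it. At Foxc2 (chr8:121116171-121118895, plus strand), the NSC H3K4me3 peak held a run and the NFO H3K4me3 peak again began straight after it.
Foxk1, OLIG2 in OPCs, chr5:142401115-142401344: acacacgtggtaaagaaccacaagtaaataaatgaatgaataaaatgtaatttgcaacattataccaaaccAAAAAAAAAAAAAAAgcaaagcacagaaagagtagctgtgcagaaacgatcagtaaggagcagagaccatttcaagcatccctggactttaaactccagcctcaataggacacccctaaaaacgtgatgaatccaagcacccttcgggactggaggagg
Foxk1, H3K4me3 in NFOs, chr5:142401200-142401463: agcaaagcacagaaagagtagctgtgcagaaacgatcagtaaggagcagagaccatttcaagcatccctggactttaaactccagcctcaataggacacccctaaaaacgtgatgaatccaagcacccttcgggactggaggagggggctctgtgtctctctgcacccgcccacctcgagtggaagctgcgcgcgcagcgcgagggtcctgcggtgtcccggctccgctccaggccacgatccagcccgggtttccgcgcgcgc
Foxh1, H3K27me3 in NSCs, chr15:76670251-76670543: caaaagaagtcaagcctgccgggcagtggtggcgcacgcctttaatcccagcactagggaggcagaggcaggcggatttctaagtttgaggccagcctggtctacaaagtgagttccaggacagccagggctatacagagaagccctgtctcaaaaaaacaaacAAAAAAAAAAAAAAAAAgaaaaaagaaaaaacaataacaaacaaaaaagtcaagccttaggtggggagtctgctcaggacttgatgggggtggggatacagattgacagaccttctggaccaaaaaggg
Foxh1, H3K27me3 in OPCs, chr15:76670432-76670630: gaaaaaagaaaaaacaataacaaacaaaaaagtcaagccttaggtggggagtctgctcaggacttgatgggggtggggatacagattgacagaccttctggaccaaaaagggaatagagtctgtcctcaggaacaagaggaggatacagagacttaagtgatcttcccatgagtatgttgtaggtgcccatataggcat
Foxc2, H3K4me3 in NSCs, chr8:121114929-121115218: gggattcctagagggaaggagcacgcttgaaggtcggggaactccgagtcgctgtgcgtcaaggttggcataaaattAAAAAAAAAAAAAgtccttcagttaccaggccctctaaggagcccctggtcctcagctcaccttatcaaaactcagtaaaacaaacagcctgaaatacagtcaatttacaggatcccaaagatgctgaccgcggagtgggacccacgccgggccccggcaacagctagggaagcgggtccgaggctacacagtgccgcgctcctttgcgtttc
Foxc2, H3K4me3 in NFOs, chr8:121115019-121115242: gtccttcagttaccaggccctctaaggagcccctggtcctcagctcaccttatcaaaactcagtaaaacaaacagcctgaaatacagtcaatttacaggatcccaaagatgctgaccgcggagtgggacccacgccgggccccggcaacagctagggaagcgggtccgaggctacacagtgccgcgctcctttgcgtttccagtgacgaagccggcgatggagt

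Each gene was given a state in each stage. A gene was K4 only or K27 only where only that mark was listed within 2 kb, bivalent where overlapping peaks of both marks formed a domain there and neither mark stood alone, and mixed where both occurred in any other arrangement. In NSCs, 17 members were bivalent (5.30% of all protein-coding genes), 10 were K4 only (52.2%), 7 mixed (7.09%), 1 K27 only (3.07%) and 4 without a peak (32.4%). In OPCs, 6 were bivalent (2.99%), 8 K4 only (49.5%), 16 mixed (8.51%), 5 K27 only (4.93%) and 4 without a peak (34.0%). In NFOs, 6 were bivalent (1.56%), 7 K4 only (38.9%), 10 mixed (3.47%), 8 K27 only (4.53%) and 8 without a peak (51.5%). Both marks lay within 2 kb at 23, 19 and 13 members in the order NSCs, OPCs and NFOs (11.8%, 11.2% and 4.67%). At some genes a bivalent domain reached the window while its H3K4me3 part lay beyond it, as at Foxa2 in NSCs and Foxb1 in OPCs and NFOs, so the counts of domains and of both marks differ.

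**Figure D1:**
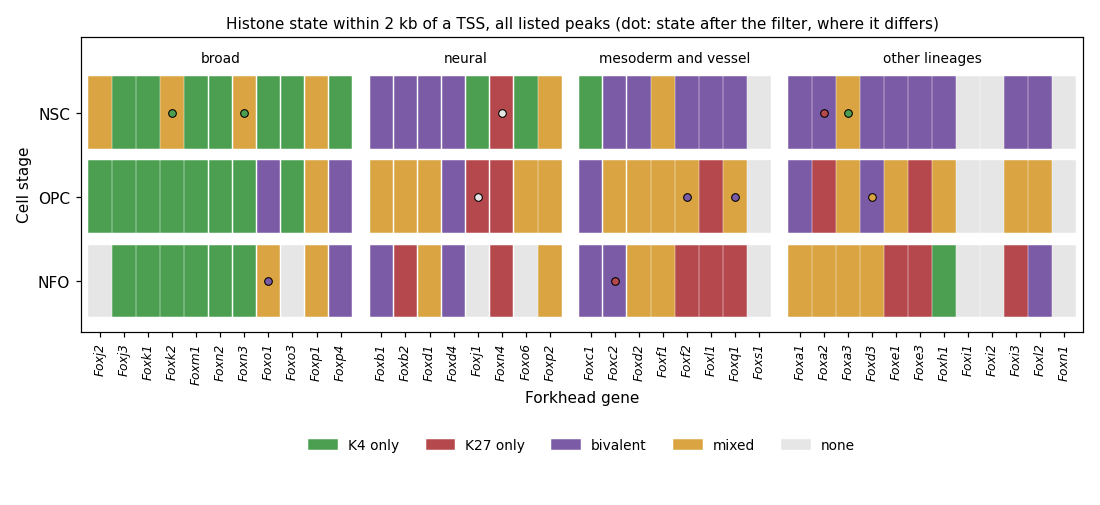
State of each of the 39 Fox genes (horizontal axis, grouped by role) in NSCs, OPCs and NFOs (vertical axis) from listed peaks within 2 kb of a TSS; cell colors mark K4 only, K27 only, bivalent, mixed and none, and a dot gives the state after the filter of the methods where it differs. K4 only fills most of the broadly acting group, and 17 genes are bivalent in NSCs against 6 in OPCs and 6 in NFOs.

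H3K27me3 was listed in all stages at 21 members (4.49% of all protein-coding genes), H3K4me3 in all stages at 19 (41.8%), and no peak of either mark in any stage at 4 (28.3%). The state differed between NSCs and OPCs at 22 members (23.3%) and between OPCs and NFOs at 17 (28.3%). Of the 25 members with H3K27me3 in NSCs, 3 had none in OPCs, namely Foxj2, Foxk2 and Foxn3, against 52.3% of all protein-coding genes that had the mark in NSCs. Of the 27 with it in OPCs, 3 had none in NFOs, namely Foxh1, Foxj1 and Foxo6, against 50.3%. H3K27me3 thus stayed listed at most members that had it.

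Of the 14 members without H3K27me3 in NSCs, 5 had it in OPCs, namely Foxc1, Foxj1, Foxo1, Foxo6 and Foxp4, against 10.8% of all protein-coding genes without it in NSCs. For H3K4me3, 6 of 33 members listed in NSCs had none in OPCs (7.50%): Foxb1, Foxc2, Foxe3, Foxf2, Foxj1 and Foxl1. A further 8 of 27 listed in OPCs had none in NFOs (30.6%): Foxb2, Foxd1, Foxe1, Foxi3, Foxj2, Foxo3, Foxo6 and Foxq1. All 6 genes of the former set belong to the neural, mesodermal and other-lineage groups, and the latter set also holds the broadly acting Foxj2 and Foxo3. NSC peaks came from single-end reads and OPC and NFO peaks from paired-end reads, as their peak names show, so cell type and read layout cannot be told apart between NSCs and the other stages.

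Leaving out narrow peaks with runs changed the H3K4me3 count and the states in NFOs. Of the members' H3K4me3 peaks under 1 kb, 17 of 22 in NFOs, 5 of 13 in OPCs and 7 of 17 in NSCs had an inner or edge run. Of all listed H3K4me3 peaks under 1 kb, 67.7%, 35.9% and 69.8% had one. For H3K27me3 in the same order, 6 of 13, 4 of 16 and 4 of 4 narrow member peaks had a run, against 34.4%, 70.8% and 88.0%. Without the narrow peaks with a run, H3K27me3 remained at 23 members in NSCs, 26 in OPCs and 22 in NFOs, where all protein-coding genes gave 7.22%, 9.20% and 7.80%. H3K4me3 then remained at 31, 25 and 8 members (62.6%, 57.9% and 28.3%), so that the count in NFOs was 8 where it had been 20. The states in NFOs became 2 K4 only (26.5%), 16 K27 only (5.94%), 2 bivalent (0.378%), 5 mixed (1.49%) and 14 without a peak (65.7%). Foxh1, Foxj3, Foxk1, Foxk2, Foxm1 and Foxn2 then had no mark in NFOs, and Foxb1, Foxc1, Foxc2 and Foxd4 were K27 only there. This alternative was chosen after the data had been seen.

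The H3K27me3 peaks were wide. The median of the widest peak per member with the mark was 8889, 2746 and 4599.5 bp in the order of the stages, against 687.5, 665 and 891.5 bp over all protein-coding genes with the mark. A peak of at least 5 kb lay near a TSS of 17, 12 and 11 members, whereas 1.28%, 1.31% and 1.11% of all protein-coding genes had one. At least 2 separate H3K27me3 peaks lay near a TSS of 5, 21 and 17 members (2.01%, 5.17% and 3.46%), so the single wide peaks of NSCs were often listed as several pieces in OPCs and NFOs. The 5' end of the gene itself was inside H3K27me3 at 13 of 25, 12 of 27 and 13 of 24 members with the mark, against 14.3%, 15.2% and 18.4% of all protein-coding genes with it. Of the members' NSC peaks of at least 1 kb, 24 of 27 held an inner run. Of all listed NSC H3K27me3 peaks of at least 1 kb, 87.6% held one, as did 21.9% of windows beside them. These shares are not matched to the width of the member peaks.

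**Figure D2:**
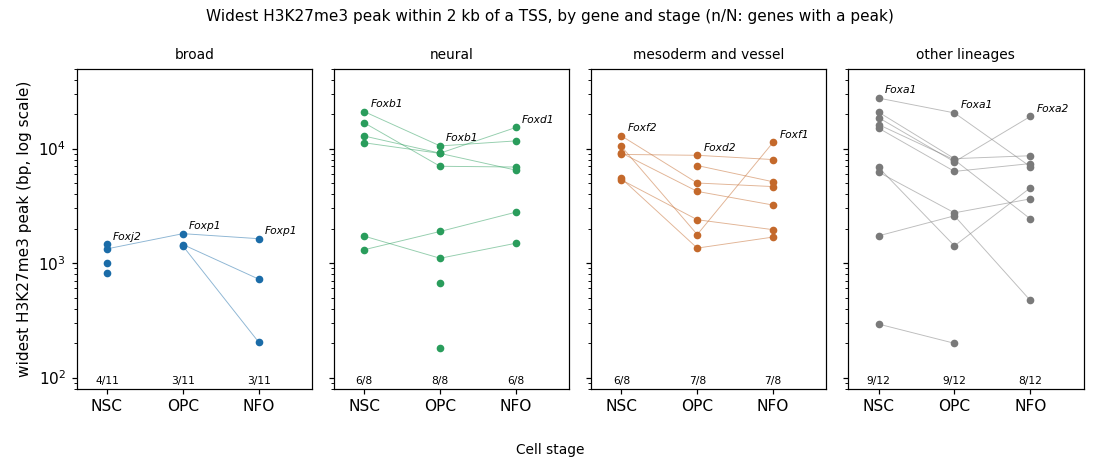
Width of the widest H3K27me3 peak within 2 kb of a TSS (vertical axis, bp, log scale) in NSCs, OPCs and NFOs (horizontal axis), with 1 panel per role group; points are genes, lines join the same gene in adjacent stages, and the numbers below give the genes with a peak out of those in the group. Peaks of the broadly acting genes stay at or below 1806 bp, and the widest of the other groups reach 21046, 12914 and 27618 bp.

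Among the neural members, Foxb1, which patterns the diencephalon, Foxd4, a neural plate factor, Foxb2 and Foxd1 kept H3K27me3 over the 5' end in every stage. The widest peak at Foxb1 measured 21046, 10547 and 11672 bp, and its fold enrichment over input was 5.13, 5.76 and 5.85. Foxb1 also had H3K4me3 in NSCs at a fold enrichment of 4.91 over 3585 bp, and no H3K4me3 peak within 2 kb later. Foxd4 was bivalent in all stages, with H3K27me3 of 11240, 9076 and 6478 bp and H3K4me3 of 928, 559 and 199 bp. Its NSC H3K4me3 peak, at 3.14, did not pass the filter described below, although its NSC state stayed bivalent. Foxd4 was the only member that was bivalent in all 3 stages.

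Foxb2, a close relative of Foxb1, was bivalent in NSCs, mixed in OPCs and K27 only in NFOs, with H3K27me3 of 16799, 7004 and 6901 bp. Foxd1, which acts in the retina and in kidney stroma, carried H3K27me3 of 12873, 9118 and 15303 bp. Its H3K4me3 measured 187 bp in NSCs and 1743 bp in OPCs and was absent within 2 kb in NFOs. Both genes thus held broad H3K27me3 throughout while H3K4me3 near the TSS was not listed in NFOs.

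The remaining neural genes differed. Foxp2, known for its part in vocal learning and speech, was mixed in every stage, with H3K4me3 fold enrichments of 7.50, 10.4 and 11.3 and H3K27me3 of 1307, 1887 and 2784 bp. Its NSC and OPC H3K27me3 peaks lay at internal TSSs, at least 282592 bp from the 5' end. The H3K4me3 values of 10.4 and 11.3 also came from an internal TSS. With 1 TSS per gene, Foxp2 was K4 only in NSCs and OPCs. Foxn4, needed for amacrine and spinal interneurons, was K27 only in all stages, at 1719, 1101 and 1490 bp. Its NSC peak had a fold enrichment of 3.15 and did not pass the filter of the study's methods, which keeps peaks with an FDR under 0.05 and a fold enrichment over 3.5.

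Foxj1, the master factor of motile cilia in ependymal cells, was K4 only in NSCs, K27 only in OPCs and without a mark in NFOs. It had an H3K4me3 peak of 2636 bp over its TSS in NSCs at a fold enrichment of 4.97, a single H3K27me3 peak of 180 bp in OPCs at 3.41 and an FDR of 0.029, and nothing in NFOs. The OPC peak did not pass the filter, which left Foxj1 without a mark in OPCs and NFOs. Foxo6, a FOXO factor of the forebrain, had H3K4me3 over 2343 bp in NSCs at 8.68 and over 1099 bp in OPCs at 4.52. In OPCs it also had H3K27me3 peaks of 674 and 200 bp, and in NFOs neither mark.

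The mesodermal and vascular members include the regulators of the mesenchyme of gut and lung (Foxf1, Foxf2, Foxl1), of lymphatic vessels (Foxc2) and of the meninges, eye and vessels (Foxc1). In this group H3K27me3 was listed at 6, 7 and 7 of 8 genes and H3K4me3 at 7, 4 and 4. Foxc1 differed from the rest in NSCs, where it was K4 only with 5536 bp of H3K4me3. It was bivalent in OPCs and NFOs, with H3K27me3 of 7110 and 5126 bp over its 5' end, and H3K4me3 of 1210 and 384 bp at fold enrichments of 15.4 and 22.8, after 10.5 in NSCs.

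Foxc2 was bivalent in NSCs, with 9154 bp of H3K27me3, and its NFO H3K4me3 peak was the narrow one printed above, at a fold enrichment of 3.28, which did not pass the filter. Foxf2 was bivalent in NSCs and K27 only in NFOs, with H3K27me3 of 12914, 5001 and 4656 bp. Foxl1 had H3K27me3 of 5331, 2390 and 1956 bp and, in NSCs alone, H3K4me3 of 184 bp. These 3 genes kept H3K27me3 of at least 1956 bp in every stage.

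Foxf1 was mixed in every stage, with the widest H3K27me3 peak at 10448, 1774 and 11360 bp. Foxd2, which acts in paraxial mesoderm and kidney, kept 8889, 8735 and 8016 bp of H3K27me3 and was bivalent in NSCs and mixed later. Foxq1, known from hair and endothelium, had H3K4me3 of 3648 and 3406 bp in NSCs and OPCs and none within 2 kb in NFOs, where 1687 bp of H3K27me3 remained. Short NFO H3K4me3 peaks lay further into the gene, 2841 and 4530 bp from its 5' end, at 3.53 and 3.75. The NSC and OPC peaks also spanned those places. Foxs1, a pericyte gene, had no listed peak in any stage.

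The 12 members that act mainly in other lineages were covered by H3K27me3 in 9, 9 and 8 cases. The pioneer factor of endoderm Foxa1 held the widest H3K27me3 peak of all members in NSCs and OPCs, with 27618 and 20487 bp, and 6956 bp in NFOs. Its H3K4me3 peaks were short, at 287, 612 and 245 bp, with fold enrichments of 7.52, 11.9 and 14.7. The NFO peak had an edge run, and without peaks under 1 kb with a run Foxa1 had no H3K4me3 in NFOs. Foxa2, which also acts in the floor plate, held 18638, 7663 and 19091 bp of H3K27me3, the last being the widest in NFOs, and no H3K4me3 peak within 2 kb in any stage. Foxa3, a liver factor, had much shorter H3K27me3 of 1728, 2586 and 471 bp, and the TSS of Sympk lies within 2 kb of its own.

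Foxd3, a neural crest factor, had 20815, 8164 and 8659 bp of H3K27me3 and the highest H3K4me3 fold enrichment of all members in NSCs, 14.1, followed by 8.77 and 10.6. These H3K4me3 peaks measured 322, 233 and 288 bp, with an inner run in NSCs and an edge run in OPCs and NFOs. Without peaks under 1 kb with a run, Foxd3 had no H3K4me3 in any stage. Foxl2, an ovarian factor, had H3K27me3 of 16209, 7964 and 2431 bp and H3K4me3 in every stage, and a separate OPC H3K27me3 peak of 2282 bp reached a fold enrichment of 12.7. Foxe1 (thyroid) had 15090, 6318 and 7395 bp of H3K27me3, Foxe3 (lens) 6847, 1413 and 4543 bp and Foxi3 (ectodermal placodes) 6233, 2746 and 3634 bp. Foxe1, Foxe3 and Foxi3 were bivalent in NSCs and K27 only in NFOs, as were Foxb2, Foxf2, Foxl1 and Foxq1, which makes 7 of the 17 members bivalent in NSCs, against 162 of the 1162 protein-coding genes bivalent there. The NSC H3K4me3 peaks within 2 kb of Foxe1, Foxe3 and Foxi3 did not pass the filter, at 3.33, 2.96 and 3.25. Their NSC state stayed bivalent after it, since a bivalent domain still reached the window.

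Foxh1, a partner of SMADs in Nodal signaling, was bivalent in NSCs, mixed in OPCs and K4 only in NFOs, but its H3K27me3 peaks were the narrow ones printed above, of 293 and 199 bp, and the TSS of Ppp1r16a lies within 2 kb. Its H3K4me3 fold enrichments were 10.5, 9.05 and 11.6. Foxi1 (inner ear), Foxi2 and Foxn1 (thymic epithelium) had no listed peak in any stage. Other TSSs within 2 kb of a member were those of Rhno1 at Foxm1, of Frg2f1 at Foxj3 and of long noncoding RNAs at Foxb1, Foxd2, Foxd3, Foxe1, Foxf1, Foxf2, Foxj2, Foxl2, Foxn3 and Foxo1, and peaks there cannot be assigned to either gene alone.

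The 11 broadly acting members had H3K4me3 at 11, 11 and 9 genes and H3K27me3 at 4, 3 and 3. Foxk1, a regulator of metabolism, Foxj3, Foxn2 and the G2/M factor Foxm1 were K4 only throughout when all listed peaks were counted, but their NFO peaks were under 1 kb with a run and, as given above, all 4 had no mark in NFOs without such peaks. Their H3K4me3 fold enrichments in NSCs, OPCs and NFOs were 12.9, 8.03 and 13.3 at Foxk1, 10.4, 6.60 and 16.2 at Foxj3, 9.66, 11.1 and 24.6 at Foxn2, and 11.7, 8.32 and 12.8 at Foxm1. Their widths in NFOs, from 264 to 542 bp, were below those of 1099 to 1753 bp in OPCs and 2463 to 4500 bp in NSCs.

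Foxk2 and Foxn3, a repressor linked to cell-cycle checkpoints, were mixed in NSCs and K4 only later, and their NSC H3K27me3 peaks had fold enrichments of 2.40 and 2.91 and did not pass the filter. Those peaks lay at internal TSSs, 37330 and 113046 bp from the 5' ends. The H3K4me3 fold enrichment at Foxn3 was 13.3, 11.0 and 17.5, among the highest of the members in NSCs and NFOs. Foxj2 had 1463 bp of H3K27me3 at 3.62 in NSCs, 7534 bp from its 5' end, H3K4me3 at 8.86 and 7.54 in NSCs and OPCs, and no peak in NFOs. With 1 TSS per gene, Foxk2, Foxn3 and Foxj2 were K4 only in NSCs. Foxo3, a FOXO factor restrained by insulin and AKT signaling, had H3K4me3 over 6000 and 4108 bp at 8.14 and 5.50 and no peak of either mark in NFOs.

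Foxo1, its relative, and Foxp4 were K4 only in NSCs and bivalent in OPCs. Foxo1 had H3K4me3 at 12.3, 8.13 and 15.5, joined by 1451 bp of H3K27me3 at 4.52 in OPCs and 723 bp at 4.21 in NFOs. Foxp4 had H3K4me3 at 10.0, 5.34 and 7.33, joined by 1409 bp of H3K27me3 in OPCs and 203 bp in NFOs. At Foxp4, peaks of OPC H3K27me3, NFO H3K4me3 and NFO H3K27me3 all start at base 47925860 of chromosome 17, with an A run before it. Identical starts of H3K4me3 and H3K27me3 peaks occurred 200 times in OPCs, 281 times in NFOs and 15 times in NSCs over the whole lists.

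Foxp1, a gene of 597384 bp with several promoters and roles in neurons and blood, was mixed in each stage. With 1 TSS per gene, Foxp1 was K4 only in OPCs. Its top H3K4me3 fold enrichment was 12.7, 17.4 and 9.53, and the OPC value came from a peak of 222 bp with an edge run. Its top H3K27me3 fold enrichment was 3.72, 10.1 and 6.51.

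Over the members with H3K4me3, the median of the top fold enrichment was 8.14, 7.54 and 10.9, against 8.44, 6.50 and 5.02 over all protein-coding genes with the mark. It was 10.2, 8.10 and 13.3 for members without H3K27me3 and 5.87, 5.45 and 8.32 for members with it. The NFO value of 13.3 rests on 7 members, and the top peak of each had an inner or edge run. Such a run was present in 23 of the 28 member H3K4me3 peaks in NFOs, against 67.2% of all listed ones. The part of runs in these values was not tested. The median width of the widest H3K4me3 peak was 2343, 1397 and 359.5 bp, against 2161, 1369 and 579 bp. Fold enrichments were not compared between libraries beyond these values, since each list has its own depth and background.

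**Figure D3:**
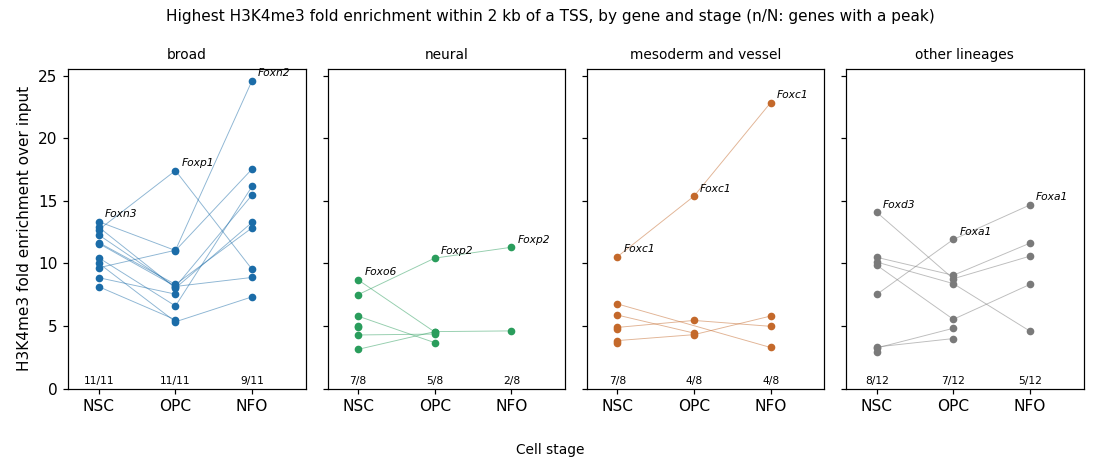
Highest H3K4me3 fold enrichment over input within 2 kb of a TSS (vertical axis) in NSCs, OPCs and NFOs (horizontal axis), with 1 panel per role group; points are genes, lines join the same gene across stages, and the numbers below give the genes with a peak out of those in the group. Foxn2 at 24.6 and Foxc1 at 22.8, both in NFOs, are the highest values. The Foxn2 peak holds an inner run of A or T and the Foxc1 peak has an edge run.

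Some members lie together in the genome. On chromosome 13, Foxq1, Foxf2 and Foxc1 fall within 256343 bp (chr13:31556134-31812476), and H3K27me3 covered 26925, 39979 and 34311 bp of the interval and 10 kb on either side in NSCs, OPCs and NFOs, while H3K4me3 covered 13929, 6735 and 2641 bp. On chromosome 8, Foxf1, Foxc2 and Foxl1 fall within 46259 bp (chr8:121084386-121130644), and H3K27me3 covered 46.8%, 39% and 36.7% while H3K4me3 covered 9.68%, 3.71% and 1.73%. On chromosome 4, Foxd2 and Foxe3 fall within 19732 bp (chr4:114906282-114926013), and H3K27me3 covered 57.2%, 54.2% and 56.7%. The chromosome 13 genes differed from the other clusters in that Foxc1 had no H3K27me3 in NSCs, so H3K27me3 there covered more of the interval in OPCs than in NSCs.

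**Figure D4:**
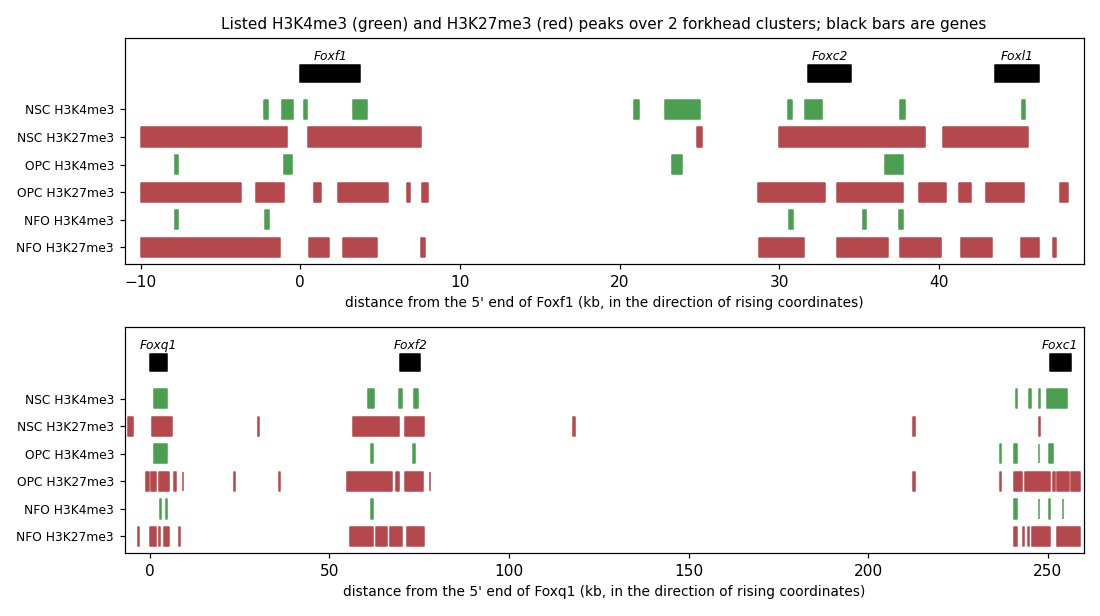
Listed H3K4me3 (green) and H3K27me3 (red) peaks in NSCs, OPCs and NFOs over the chromosome 8 cluster (upper panel, distance in kb from the 5' end of Foxf1) and the chromosome 13 cluster (lower panel, distance in kb from the 5' end of Foxq1); black bars are genes. H3K27me3 covers 46.8%, 39% and 36.7% of the chromosome 8 window and 26925, 39979 and 34311 bp of the chromosome 13 window.

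OLIG2 peaks were listed at a share of members near that of all genes in OPCs and below it in NFOs. In OPCs, 14 peaks lay at 6 members, or 15.4%, against 16.5% of all protein-coding genes, namely Foxd3, Foxk1, Foxn2, Foxn3, Foxo3 and Foxp1. In NFOs, 26 peaks lay at 8 members, or 20.5%, against 28.2%, namely Foxj3, Foxl2, Foxn1, Foxn3, Foxo1, Foxp1, Foxp2 and Foxp4. Foxn3 and Foxp1 had OLIG2 peaks in both stages, 2 members (9.79%). The summit lay in an intron for 12 of the 14 and 23 of the 26.

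The members with an OLIG2 peak were the long ones. Their median length was 72700.5 bp for the 12 genes with a peak in either stage and 4093 bp for the 27 without, with 17425 bp over all protein-coding genes. All 8 members of at least 50 kb had a peak in some stage, but 4 of 31 shorter members did. Among genes of at least 50 kb, 4 of 8 members had a peak in OPCs (38.5% of all such genes) and 6 of 8 in NFOs (61.3%), near the shares of long genes at large.

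The strongest OLIG2 peak of a member in NFOs was at Foxn3 (chr12:99190078-99563582, minus strand), in an intron, with a fold enrichment of 22.7 and an inner run of 19 bases. The highest OPC value was 18.96 at Foxp1, in an intron inside H3K4me3 of every stage and H3K27me3 of OPCs and NFOs. That peak held an inner run of 15 bases. At Foxk1 the OPC summit lay at -267 bp from the TSS with a fold enrichment of 17.2, in H3K4me3 in all stages, as printed above. At Foxo3 (chr10:42181841-42276755, minus strand) an intronic OPC peak reached 14.2 and held 2 of the E-box forms searched for. Its sequence is shown on the plus strand as an example of such a peak, with those forms alone in capitals. This peak also had an edge run, which lies outside the bases printed.
Foxo3, OLIG2 in OPCs, chr10:42203410-42203639: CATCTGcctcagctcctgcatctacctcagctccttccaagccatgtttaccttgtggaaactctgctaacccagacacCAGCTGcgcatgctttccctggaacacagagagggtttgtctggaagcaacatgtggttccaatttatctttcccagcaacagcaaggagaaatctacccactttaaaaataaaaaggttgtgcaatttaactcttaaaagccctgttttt

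Other Foxn3 peaks reached 15.99 in OPCs and 14.6 in NFOs. In OPCs, Foxd3 had a peak of 8.47 with its summit at -5075 bp from the TSS, inside H3K4me3 and H3K27me3 in all stages, and Foxn2 had an intronic peak of 8.88. In NFOs, intronic peaks reached 14.4 at Foxp2, 10.1 at Foxo1, 9.79 at Foxp4 and 9.01 at Foxj3, and a peak of 8.97 lay in a coding exon of Foxn1. Foxn1 thus had an OLIG2 peak although neither histone mark was listed near its TSS. The Foxl2 peak, at 3.71 with an FDR of 0.0883, did not pass the filter of an FDR under 0.05 and a fold enrichment over 5, which left 13 of 14 OPC peaks and 22 of 26 NFO peaks.

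Of the E-boxes, 3 forms were searched on both strands in the peaks. The palindrome CAGCTG lay in 4 of 14 member peaks in OPCs (13.6% of all OPC peaks) and 3 of 26 in NFOs (10.1%). The other palindrome, CATATG, lay in 2 of 14 (6.2%) and 2 of 26 (6.51%). The form that is not a palindrome, CATCTG on either strand, lay in 2 of 14 (18.9%) and 5 of 26 (17.4%). Any of them lay in 7 of 14 and 9 of 26, where 34.3% and 30.6% of all peaks held one. A run of A or T lay inside or at the edge of 12 of the 14 and 16 of the 26, against 71.4% of all OPC and 70.6% of all NFO peaks. Peaks free of runs were left at Foxn2 and Foxn3 in OPCs, where 5.44% of all protein-coding genes kept one, and at Foxl2, Foxn3, Foxp1 and Foxp2 in NFOs, where 10.6% did. Leaving out peaks with runs thus lowered the counts from 6 to 2 and from 8 to 4.

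**Figure D5:**
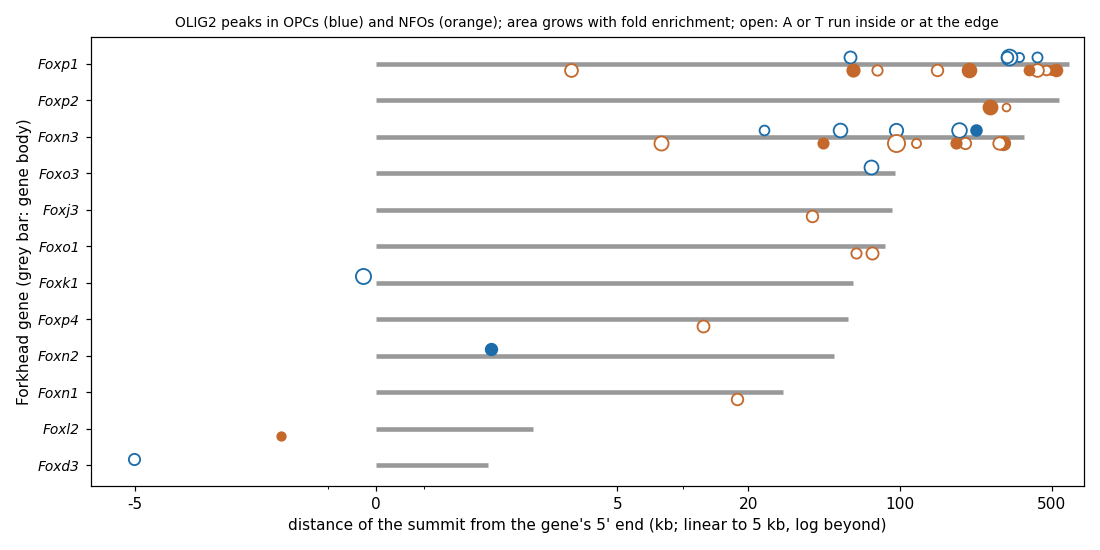
Position of each OLIG2 peak summit relative to the gene's 5' end (horizontal axis, kb, linear to 5 kb and log beyond) for the 12 Fox genes with a peak (vertical axis, longest gene at the top), in OPCs (blue) and NFOs (orange); symbol area grows with fold enrichment, grey bars are gene bodies, and open symbols mark an A or T run inside or at the edge. Most summits lie inside long genes, and open symbols make up 12 of 14 OPC and 16 of 26 NFO peaks. Of all listed OLIG2 peaks, 71.4% in OPCs and 70.6% in NFOs had such a run.

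Promoter sequence was compared for the 25 members matched by symbol in RefSeq promoters of GRCm38 (250 bases before to 50 after the start). These held a median of 25 CpG in the window, against 14 over all 16538 protein-coding genes matched. The members with H3K27me3 in all stages held a median of 22, ranging from 10 to 31, against 18 for such genes overall. Of the members with no peak, Foxi1 had 6, Foxi2 had 5 and Foxn1 had 8, against a median of 2 for genes overall without a peak. The upstream 250 bases of Foxi1, which had no listed peak, and of Foxd3, which had wide H3K27me3 throughout, are shown in gene direction with each CpG in capitals, as examples of low and high CpG content.
Foxi1, chr11:34208090-34208339, minus strand: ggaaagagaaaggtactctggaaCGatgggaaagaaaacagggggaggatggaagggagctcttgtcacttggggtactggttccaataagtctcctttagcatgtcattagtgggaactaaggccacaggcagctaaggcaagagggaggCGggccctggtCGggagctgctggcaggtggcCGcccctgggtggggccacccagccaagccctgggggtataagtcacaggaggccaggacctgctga
Foxd3, chr4:99656049-99656298, plus strand: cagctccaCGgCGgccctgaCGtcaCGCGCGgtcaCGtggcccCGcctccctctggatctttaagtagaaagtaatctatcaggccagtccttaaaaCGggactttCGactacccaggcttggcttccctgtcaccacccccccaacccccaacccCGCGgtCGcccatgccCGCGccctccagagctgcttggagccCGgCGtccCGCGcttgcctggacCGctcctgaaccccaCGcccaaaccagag
Foxi1 held 4 CpG in this window and Foxd3 held 21.

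Genes that act with forkhead factors had H3K27me3 counts to be read against the 15.1%, 16.4% and 9.56% of all protein-coding genes, and OLIG2 counts against 16.5% in OPCs and 28.2% in NFOs. Of 24 genes of the insulin and FOXO pathway, H3K4me3 was listed at 24, 24 and 20, H3K27me3 at 4, 5 and 1 and OLIG2 at 7 in OPCs and 10 in NFOs. Bcl2l11, a FOXO target that promotes apoptosis, was the pathway gene with H3K27me3 in NFOs, with 4719 bp at 5.71 in OPCs and 1934 bp at 5.21 in NFOs. Of 12 FOXM1 target genes of mitosis, H3K4me3 was listed at 12, 12 and 9, H3K27me3 at 1, 3 and 0, and OLIG2 at 3 and 7. Of 14 FOXJ1 target genes of cilia, H3K4me3 was listed at 13, 12 and 7, H3K27me3 at 2, 2 and 1, and OLIG2 at 7 and 6. The FOXJ1 gene with H3K27me3 in NFOs was Rfx2, a cilia regulator, at 1459 bp.

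In RIP-Seq, which lists RNA sites bound by a precipitated protein, transcripts of 1 member appeared. Foxj3 had 8 sites with 51 tags in the OLIG2 precipitate and 6 sites with 51 tags in the IgG control, none overlapping. Each of these sites is listed as 1 base, so the lack of overlap does not show that they lay apart. An OLIG2 site began at base 119539338 of chromosome 4 and an IgG site at base 119539305. The share of all protein-coding genes with such sites is not given here. The lists hold 101310 and 83195 sites, and the labels name NFOs while the methods name NSCs as the cells of origin.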

How the data were processed

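ChIP-Seq peak lists of 8 libraries (both histone marks in each stage and OLIG2 in OPCs and NFOs) and 2 RIP-Seq site lists were read; the 3 input libraries were controls of the authors' peak calling. According to the methods, the authors mapped reads to mm10 with Bowtie2, kept unique reads, called histone peaks with MACS2 (broad) and OLIG2 peaks with SPP, and removed blacklisted regions; tool versions are not given in the sources used here. The deposited histone lists hold a fold enrichment (a ratio over input), a −log10 p-value and a −log10 q-value per peak, with FDR up to 0.1. The deposited OLIG2 lists hold a fold enrichment, a −log10 FDR and a summit. The deposited RIP-Seq lists hold tag counts and p-values by ASPeak. The lists give no reads, so depth is unknown and the precision of a peak's value is not known.

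All listed peaks were used, with any annotated TSS of GENCODE release 21 (GRCm38), in Python 3.11.15 with NumPy 2.4.6, pysam 0.24.0 and Matplotlib 3.10.9. Peaks of both marks overlapping by at least 1 bp were merged into bivalent domains. The background was the 21938 protein-coding genes. No test was made, since each condition had 1 library. The code was tested on simulated data. The 39 genes, the role groups and the other gene lists were chosen with earlier results of these data known. All members are accounted for; given in most detail are members with both marks or a change of state, every member with an OLIG2 peak, and the 3 with the widest H3K27me3 or highest H3K4me3 in each stage. Alternatives were the filters of the methods (FDR under 0.05, fold enrichment over 3.5 or, for OLIG2, 5), stricter ones (over 5 and 10), 1 kb from a TSS, 1 TSS per gene, other overlaps and widths, other OLIG2 distances, and, chosen after seeing the data, peaks with A or T runs left out. An item withheld from this text is not reported here.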

Additional observations from a re-analysis of the deposited data

How the results depend on the processing

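Of 215 values recomputed under an alternative, 158 stayed within 1.5 times and 57 moved further; 31 of these concerned states other than bivalent, 14 higher and 17 lower. Under the filter of the methods, no count of members with a mark, of bivalent genes or with OLIG2 moved by over 1.5 times. With the stricter filter, H3K27me3 was at 10 members in NSCs (2.43% of all protein-coding genes) and at 8 in all stages. Bivalent genes were then 10 in NSCs and 3 in NFOs, and OLIG2 was at 4 members in NFOs. Bivalent genes in OPCs were 10 within 1 kb of a TSS and 2 with an overlap of at least 200 bp (3 in NFOs). With every gene that had a bivalent domain called bivalent, there were 17 in OPCs and 15 in NFOs, and 14 members then differed between NSCs and OPCs.

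Leaving out peaks under 1 kb with an A or T run gave H3K4me3 at 8 members and 2 bivalent genes in NFOs. Leaving out every peak with a run gave H3K4me3 at 16, 13 and 4 members in NSCs, OPCs and NFOs (37.2%, 40.3% and 22.4% of all protein-coding genes). H3K27me3 was then at 3, 17 and 14 members (2.77%, 7.00% and 6.43%). Bivalent genes were then 2, 2 and 1, and H3K27me3 in all stages was at 2 members. Windows beside all listed NSC H3K27me3 peaks held an inner run in 21.9% of cases at 1 kb or more and 4.21% below it. Those windows are not matched to the width of the member peaks. OLIG2 peaks without runs were left at 2 members in OPCs and 4 in NFOs, and OLIG2 within 5 kb of a TSS alone gave 4 in NFOs. The cause was not tested. RIP-Seq counts did not change. The alternative that asks for more than 2 times the IgG tags could not change them, because no IgG site overlapped. No paired analysis was possible because each condition has 1 library.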
